A study of Mus musculus with 4 samples.

Results

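Genes that mark fetal liver or are imprinted were followed in the livers of mice aged 5 to 20 weeks over a feeding course, namely H19, Igf2, Afp, Gpc3, Dlk1, Igf2bp3, Meg3, Peg3 and Cd24a. They were picked by gene name, 9 of the 34761 genes named on the array, and they are read by 20 probes in 29 spots. The samples were livers of male C57BL/6 mice, an inbred laboratory strain, that were put on a high-fat, high-sucrose diet (HFHS) at 5 weeks of age and sampled after 0, 5, 10 and 15 weeks of it, when they were 5, 10, 15 and 20 weeks old. The mice at 0 weeks had not begun the diet. Age-matched mice without the diet are not analysed here, so age and feeding cannot be told apart. Each time point has 1 one-colour array, no error between animals can be given, and no difference between time points was tested. Per the series text, 4 mice were fed for each length of time, and pooling of their RNA is not stated.

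Imprinted genes are read from the copy of one parent. H19, a non-coding RNA read from the maternal copy, and Igf2, a growth factor read from the paternal copy, lie side by side and share enhancers. Dlk1 and Meg3 form a second such pair, a paternally read membrane protein and a maternally read non-coding RNA, and Peg3 encodes a paternally read zinc finger protein. Afp, the albumin-like serum protein of the fetus, Gpc3, a heparan sulfate proteoglycan of the cell surface, and H19 are abundant in fetal liver and are silenced after birth, in mice through the repressors Zhx2 and, for Afp, Zbtb20. Igf2bp3 encodes a fetal RNA-binding protein that binds Igf2 messenger RNA, and Cd24a encodes a small cell surface glycoprotein of bile duct and progenitor cells and of several blood lineages. Several of these genes are also read again in regenerating liver and liver tumours.

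H19 had more probes than any other of the 9 genes, and its 7 probes are shown because they read the same RNA at separate places. The scanner files place its transcript at chr7:149761435-149764019 of build mm9 on the minus strand, 2585 bases long. The probes are 60 bases each, do not overlap one another, and are numbered here from the 3′ end, which they approach to within 57, 258, 321, 522, 678, 738 and 982 bases.
H19 probe 1: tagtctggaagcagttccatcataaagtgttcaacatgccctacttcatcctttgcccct
H19 probe 2: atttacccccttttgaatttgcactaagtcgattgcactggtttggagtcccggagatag
H19 probe 3: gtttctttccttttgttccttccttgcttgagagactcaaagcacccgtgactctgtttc
H19 probe 4: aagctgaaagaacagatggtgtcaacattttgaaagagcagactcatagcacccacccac
H19 probe 5: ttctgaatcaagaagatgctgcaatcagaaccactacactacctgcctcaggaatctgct
H19 probe 6: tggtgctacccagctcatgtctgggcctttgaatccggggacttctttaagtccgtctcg
H19 probe 7: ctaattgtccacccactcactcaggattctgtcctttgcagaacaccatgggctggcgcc
Probes 1 to 5 have a GC content of 45%, and probes 6 and 7 one of 55%.

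Signals are given as the scaled signal, which is the processed signal of a probe as a percentage of the 75th percentile of its array. A probe counts as detected where the scanner software called it well above background. A gene with several probes is described by its brightest one unless another is named, and levels of different probes are not set against each other. The 4 arrays had 44.5% to 48.3% of their spots above background, and the dimmest probe above background, which serves as the floor of an array, stood at 8.33, 9.19, 8.38 and 5.80 at 0, 5, 10 and 15 weeks. Genes above background on both arrays of a comparison count as measured, and those differing at least 2-fold are counted. At 15 against 0 weeks the median measured gene stood at −0.25 on the log2 scale, an offset that depends on the scaling, so differences at 15 weeks are also given relative to it. On the 4 arrays, probes printed in 10 spots had a median SD between spots of 0.06 to 0.08 on the log2 scale, and of 0.17 to 0.23 where the scaled signal was below a log2 of −1, the range of most of the genes described here.

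Most of the fetal and imprinted genes were at or below the detection limit. Only H19, Afp and Cd24a were above background on all 4 arrays, Meg3 on 3, Gpc3 on 2, Dlk1 and Igf2bp3 on 1 each, and Igf2 and Peg3 on none. By probe, 3 of the 20 were above background on all arrays and 8 on none. In this bulk tissue, fewer cells of a type and less RNA per cell cannot be told apart.

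**Figure D1:**
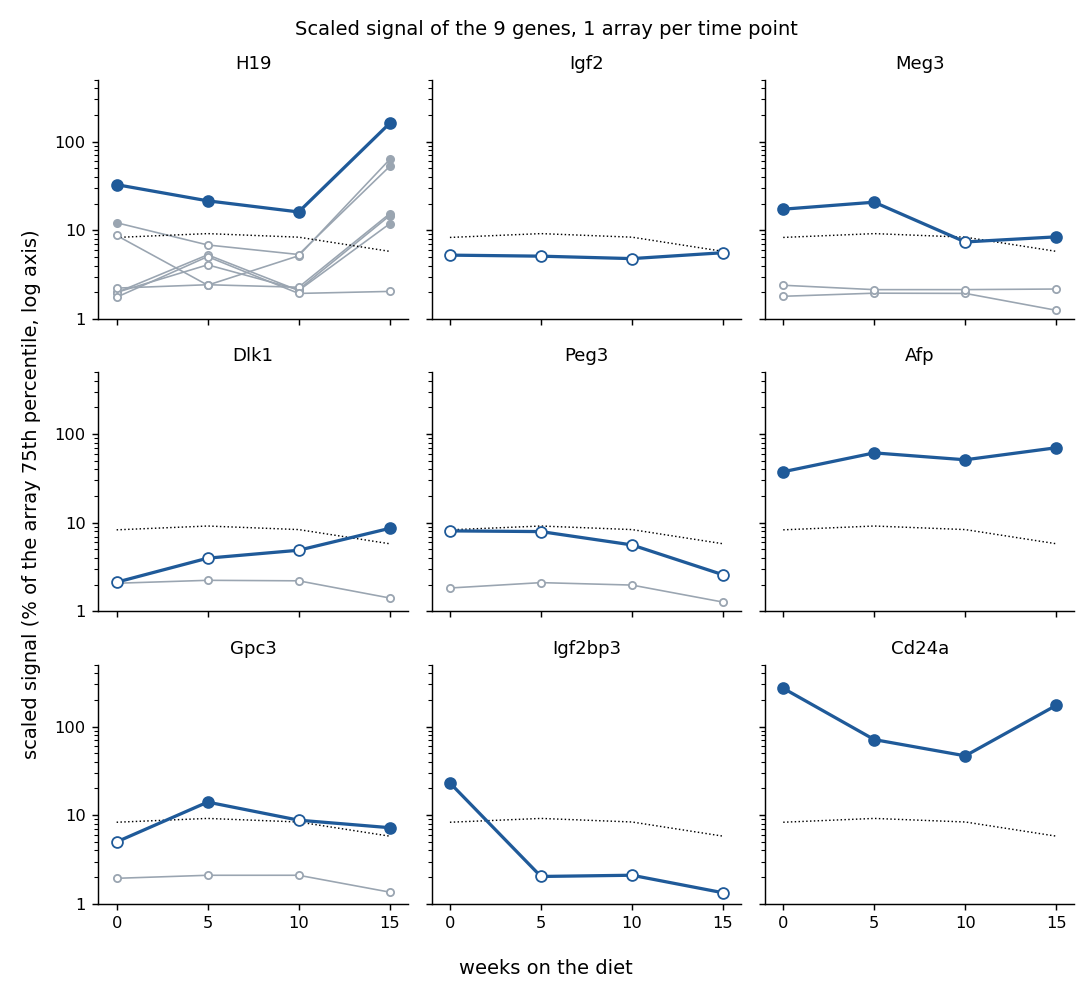
Scaled signal (percent of the 75th percentile of the array, log axis) of the 9 genes against weeks on the diet, 1 array per point. The blue line is the brightest probe and grey lines are the other probes of the gene, filled points are above background and open points are not, and the dotted line is the floor of each array. H19 ends at 161 at 15 weeks, Cd24a dips to 46.7 at 10 weeks, and Igf2 and Peg3 have open points throughout.

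Few of the 9 genes could be compared in any pair of arrays. At 5 against 0 weeks 4 were measured, of which 0 were at least 2-fold higher and 1 lower (Cd24a), where 2.3% of all measured genes were that much higher and 1.57% lower. At 10 against 0 weeks 3 were measured, with 0 higher and 2 lower (Cd24a and H19), against 2.92% and 1.53% of all measured genes. At 15 against 0 weeks 4 were measured, 1 higher (H19) and 1 lower (Meg3), against 5.76% and 5.03% of all genes. These comparisons share the array at 0 weeks and are not independent of each other. At 10 against 5 weeks 0 of 3 measured genes passed 2-fold in either direction (0.953% of all genes higher and 1.13% lower). At 15 against 10 weeks 2 of 3 were higher, H19 and Cd24a, and 0 lower (3.95% and 4.06% of all genes). At 15 against 5 weeks H19 and Cd24a were higher and Meg3 was lower, 3 of 5 measured (4.08% of all genes higher and 4.3% lower). With so few measured genes, these counts are not read as a property of the set.

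H19 was low until 10 weeks and bright at 15 weeks. Probe 1 gave a scaled signal of 32.8 at 0 weeks, 21.5 at 5 weeks, 16.1 at 10 weeks and 161 at 15 weeks. The scanner software put an error of 3.84, 3.01, 2.66 and 16.2 on these spots, so the array at 15 weeks stood apart from the other arrays beyond the error of a spot. H19 was 4.92-fold higher at 15 than at 0 weeks (5.85-fold relative to the median measured gene), 7.48-fold higher than at 5 weeks and 9.98-fold higher than at 10 weeks. On the log2 scale these differences were 2.30, 2.90 and 3.32, and they shrank to 1.66, 1.88 and 2.07 with normexp background correction, while the mean of all 7 probes gave 2.24, 2.13 and 2.62. Its log2 difference ranked 112 from the top among 17562 measured genes at 15 against 0 weeks and 12 from the top among 17490 at 15 against 10 weeks. At 10 weeks H19 was 2.03-fold lower than at 0 weeks, a log2 difference of −1.02 that shrank to −0.40 with normexp background correction and to −0.37 with the mean of all 7 probes. At 5 against 0 weeks the difference of −0.61 turned to 0.11 with the mean of all probes. That mean takes in probes that were above background on neither of these arrays. Probe 3, above background at 0 but not at 5 weeks, was at least 1.33-fold lower at 5 weeks.

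The other H19 probes had the same bright array. Probe 2 read 8.76, 2.41, 5.17 and 63.0 at 0, 5, 10 and 15 weeks and was above background only at 15 weeks, where it was at least 7.19-fold higher than at 0 weeks. Probe 3 read 12.2, 6.85, 5.34 and 52.6 and was above background at 0 and 15 weeks, which differed 4.32-fold. Probes 4, 5 and 6 were above background only at 15 weeks, at 11.9, 15.4 and 14.6, and their bounds against 0 weeks were at least 1.43-fold, at least 1.85-fold and at least 1.76-fold. Probe 7, the farthest from the 3′ end, was not above background on any array, with values from 1.76 to 5.06. In all, 6 of 7 probes were highest at 15 weeks, and 2, 1, 1 and 6 of them were above background at 0, 5, 10 and 15 weeks. None of these spots lay in a bright patch of its array, since at most 2 of the spots around any of them stood at least 2-fold above the same spot on the other arrays.

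**Figure D2:**
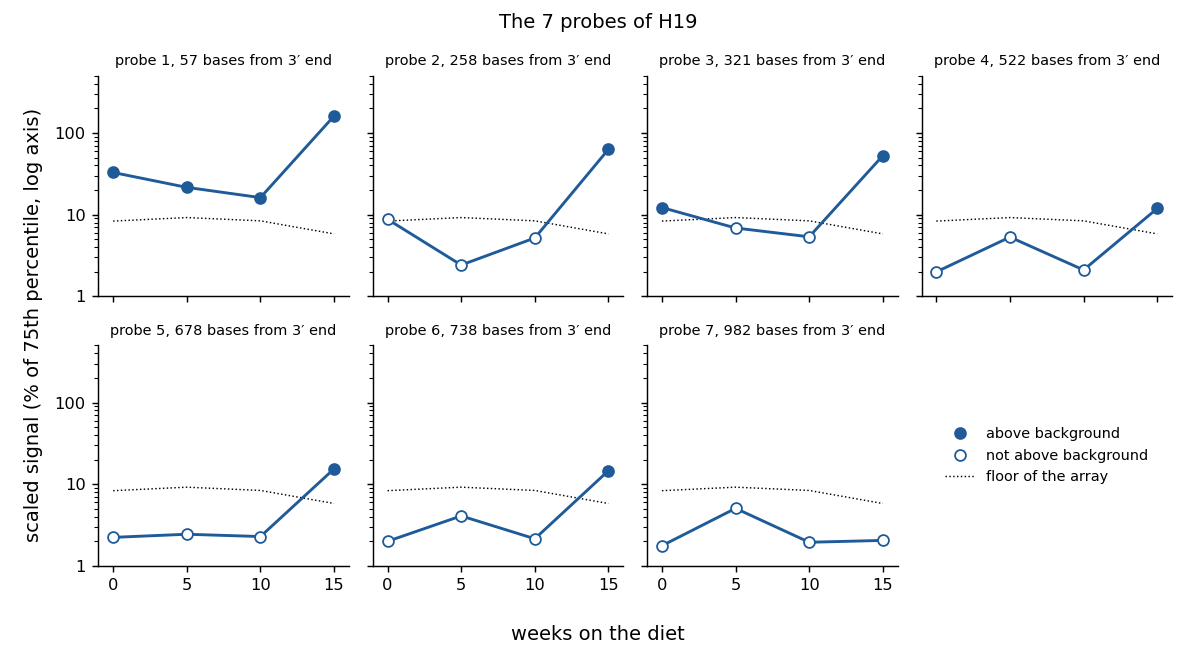
Scaled signal (percent of the 75th percentile, log axis) of each H19 probe against weeks on the diet, ordered by distance from the 3′ end, 1 array per point. Filled points are above background and the dotted line is the floor of each array. Probes 1 to 6 are highest at 15 weeks, and probe 7 stays at or below 5.06.

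Igf2, the growth factor next to H19, was not detected. Its single probe, at chr7:149839661-149839720, read 5.26, 5.12, 4.80 and 5.60 at 0, 5, 10 and 15 weeks and was below the floor on every array, so its level has no order across time. Igf2os, the antisense RNA of Igf2, read 6.93, 6.19, 6.79 and 9.71 and was above background only at 15 weeks. The last value lay close to the floors of the earlier arrays (8.33, 9.19 and 8.38), and the floor was lower at 15 weeks (5.80). Its detection there does not show a clearly higher level. Of the other genes within 100 kb of this pair, Mrpl23, a mitochondrial ribosomal protein gene, stayed between 5654 and 6930 on its brighter probe, and Ins2, an insulin gene, read 14.9, 28.1, 22.8 and 15.2. Lsp1, a gene of white blood cells, read 252, 405, 452 and 944. H19 and Igf2 thus differed in whether they could be detected at all, and a probe below the floor does not show that Igf2 RNA was absent.

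Meg3 and Dlk1, the second imprinted pair, were near the detection limit. Meg3 read 17.3 at 0 weeks, 20.8 at 5 weeks, 7.41 at 10 weeks and 8.45 at 15 weeks on its probe at chr12:110809678-110809737, with spot errors of 2.81, 3.17, 2.48 and 1.73, and it was above background on all but the 10-week array. The arrays at 0 and 5 weeks were higher than those at 10 and 15 weeks. Meg3 was 2.05-fold lower at 15 than at 0 weeks as scaled, a log2 difference of −1.04, but −0.79 relative to the median measured gene and between −0.98 and −0.26 with another scaling or with normexp, so it does not hold as a 2-fold difference. At 10 weeks it was at least 2.07-fold lower than at 0 weeks and at least 2.48-fold lower than at 5 weeks. At 15 against 5 weeks it was 2.46-fold lower (−1.30 on the log2 scale), which became −0.84 with spike-in scaling, −0.64 with the mean of all probes and −0.31 with normexp. Its other 2 probes were not above background on any array.

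Dlk1 was detected only at 15 weeks. Its brighter probe, at chr12:110698721-110698781, read 2.14, 3.99, 4.90 and 8.65 at 0, 5, 10 and 15 weeks with spot errors of 2.14, 2.40, 2.34 and 1.72. The last value lay close to the floor of the earlier arrays, so that the bound was only at least 1.04-fold against 0 weeks, and the second probe of Dlk1 was not above background on any array. Rtl1, a retrotransposon-derived imprinted gene of the same cluster, was not above background on any array. Peg3 was not above background on any array either, and its brighter probe read 8.10, 7.96, 5.63 and 2.59.

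Igf2bp3 was above background only before the diet. Its probe, at chr6:49035710-49035769, read 23.1 at 0 weeks and 2.04, 2.10 and 1.33 at 5, 10 and 15 weeks, with a spot error of 3.02 on the first array. The 3 later arrays were far under their floors, and the bounds were at least 2.51-fold, at least 2.76-fold and at least 3.98-fold lower than at 0 weeks. This difference rests on 1 spot on 1 array. Of its relatives, Igf2bp1 was not above background on any array, and Igf2bp2 read 13.5, 13.8, 25.5 and 22.8 on its brighter probe. The second Igf2bp2 probe read 16.4, 6.04, 15.4 and 11.5 and was not above background at 5 weeks. At 15 against 0 weeks these probes differed in direction, with log2 differences of 0.75 and −0.52.

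Afp was the gene with the most precise values, because its probe, at chr5:90937781-90937840, is printed in 10 spots. The spots gave geometric means of 37.6 at 0 weeks (9 spots, 1 marked as an outlier being left out), 61.4 at 5 weeks, 51.3 at 10 weeks and 70.2 at 15 weeks (10 spots each). The SD between spots was 0.11, 0.08, 0.08 and 0.06 on the log2 scale at 0, 5, 10 and 15 weeks. Single spots ran from 33.1 to 41.6 at 0 weeks, from 58.7 to 69.6 at 5 weeks, from 47.5 to 55.5 at 10 weeks and from 65.9 to 73.3 at 15 weeks. Every used spot at 0 weeks was thus dimmer than every spot of the later arrays, while spots at 5 and 15 weeks overlapped. The spots of an array share 1 RNA sample, and their SD covers error within an array, not between animals.

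As scaled, Afp was 1.63-fold higher at 5 than at 0 weeks, 1.36-fold higher at 10 weeks and 1.87-fold higher at 15 weeks, all within 2-fold. Relative to the median measured gene the last difference was 2.22-fold, and it passed 2-fold with the percentile taken over detected probes (1.10 on the log2 scale) and with spike-in scaling (1.37), but not with normexp (0.56). At 10 weeks 1 of the Afp spots had 9 bright neighbours, counted within 3 rows and 3 columns. Without it the mean at 10 weeks was 51.2, next to 51.3 with it, and on the other arrays no Afp spot had more than 2. Hepatocytes, the cells that make Afp, had 18 of 18 markers above background on every array, and at 15 against 0 weeks 0 of these were at least 2-fold higher and 4 lower, with a median log2 difference of −0.67, which became 2 lower and −0.42 relative to the median measured gene. Over all measured genes 5.76% were that much higher and 5.03% lower as scaled. Among the lower hepatocyte markers were Cps1, a urea cycle enzyme of mitochondria (4.05-fold), and Tat, a tyrosine aminotransferase (3.18-fold). The part of hepatocyte content in the Afp values was not tested.

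**Figure D3:**
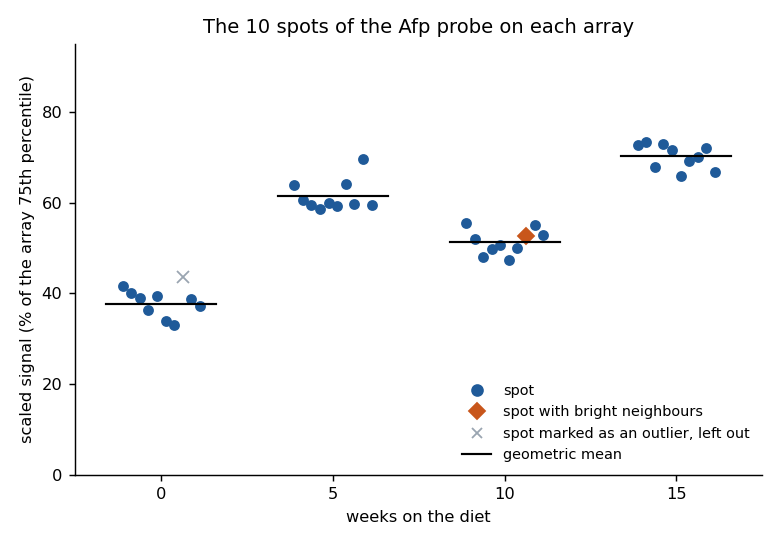
Scaled signal (percent of the 75th percentile of the array, linear axis from 0) of each Afp spot by weeks on the diet, with black bars at the geometric means of 37.6, 61.4, 51.3 and 70.2. The cross is the outlier left out at 0 weeks, and the diamond at 10 weeks is the spot with 9 bright neighbours, which lies among the others.

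Gpc3 was detected at 5 and 15 weeks. Its brighter probe, at chrX:49625740-49625799, read 5.00, 14.1, 8.78 and 7.23 at 0, 5, 10 and 15 weeks with spot errors of 1.94, 2.47, 2.21 and 1.49. The array at 5 weeks was highest, at least 1.69-fold above 0 weeks, and 15 weeks was 1.94-fold lower than 5 weeks, within 2-fold. The latter difference, −0.96 on the log2 scale, became −0.50 with spike-in scaling and −0.19 with normexp. The floor was lower at 15 than at 10 weeks (5.80 against 8.38), so detection at 15 but not at 10 weeks does not show a higher level. The second Gpc3 probe was not above background on any array.

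Cd24a was brightest before the diet and dimmest at 10 weeks. Its single probe, at chr10:43303706-43303765, read 270 at 0 weeks, 71.2 at 5 weeks, 46.7 at 10 weeks and 173 at 15 weeks. The spot errors were 27.0, 7.41, 5.07 and 17.4 in the same order. All 4 arrays were above background, and the arrays at 0 and 15 weeks were both above those at 5 and 10 weeks by more than these errors. Cd24a was 3.79-fold lower at 5 than at 0 weeks and 5.78-fold lower at 10 than at 0 weeks, the 46th lowest of 17095 and the 27th lowest of 17143 log2 differences. At 15 weeks it was 3.71-fold higher than at 10 weeks and 1.56-fold lower than at 0 weeks (1.31-fold relative to the median measured gene). No spot around it was bright on any array.

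The genes whose course over the 4 arrays lay closest to these were found among the 16683 other genes above background on all arrays, by the Euclidean distance between mean-centred log2 values. Closest to H19 were Thbs1, the matrix protein thrombospondin 1 (distance 0.06), Col3a1, a fibrillar collagen (0.36), and Elovl7, a fatty acid elongase (0.40). Thbs1 read 23.7, 14.9, 11.8 and 113 at 0, 5, 10 and 15 weeks, with the same low and bright arrays as probe 1 of H19. Closest to Cd24a were Anxa13, an annexin of epithelial cells (0.18), a probe with no gene name (0.20) and Tuba8, a tubulin (0.38). Anxa13 read 93.3, 25.7, 14.6 and 63.9, high at both ends as Cd24a was. With 4 points per gene many courses are alike, and these distances are a description only.

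Markers of stellate cells and fibroblasts, the collagen-making cells of the liver, stood beside H19. All 16 were above background on every array, and their summed scaled signal was 30859.7, 32948.7, 24939.4 and 41174.9 at 0, 5, 10 and 15 weeks. Dcn and Ecm1, both matrix protein genes, made up most of the sums at 0, 10 and 15 weeks. Dcn read 11547, 11455 and 17567 there, and Ecm1 read 11118, 10801 and 9852. At 10 against 0 weeks 0 of the 16 markers passed 2-fold upward and 5 downward, with a median difference of −0.08 in log2. At 15 against 10 weeks 10 were higher and 1 lower, with a median of 1.40. At 15 against 0 weeks 7 were higher and 2 lower, with a median of 0.88, among them Col3a1 (4.80-fold higher), Col1a1, another fibrillar collagen (4.60-fold higher), Lum, the matrix proteoglycan lumican (4.04-fold higher), and Pdgfrb, a growth factor receptor of these cells (3.32-fold higher). Over all measured genes 2.92% were that much higher and 1.53% lower at 10 against 0 weeks. The shares were 3.95% and 4.06% at 15 against 10 weeks, and 5.76% and 5.03% at 15 against 0 weeks. Relative to the median measured gene 9 of the 16 markers were higher and 1 lower at 15 against 0 weeks. Acta2 and Tagln, contractile genes of activated stellate cells and of smooth muscle, were brightest at 0 weeks instead. Acta2 read 1728, 777, 89.7 and 533 at 0, 5, 10 and 15 weeks, 19.3-fold lower at 10 and 3.24-fold lower at 15 than at 0 weeks, and Tagln read 2888, 1273, 551 and 1752. The part of these cells in the H19 values was not tested.

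Markers of bile duct and progenitor cells stood beside Cd24a. Of 18 such genes 16 were above background on every array, while Cftr was not above background on any, and the summed scaled signal of the 16 was 4581, 5116, 4019.9 and 4690.5 at 0, 5, 10 and 15 weeks. The largest part of the sums at 0, 5 and 10 weeks was Onecut1, a transcription factor that hepatocytes also express, which read 1485, 2493, 2795 and 711 and so ran opposite to Cd24a, highest at 10 weeks. The sum at 5 weeks also includes Krt7, a keratin, which read 796 there against 14.3 to 48.1 on the other arrays and had 7 bright neighbours on that array. At 10 against 0 weeks 0 of 16 were at least 2-fold higher and 7 lower, with a median log2 difference of −0.73, and at 15 against 10 weeks 10 were higher and 1 lower, with a median of 1.59. Krt19, the keratin that defines bile duct cells, read 807, 159, 59.2 and 204, and so was 13.6-fold lower at 10 than at 0 weeks and 3.45-fold higher at 15 than at 10 weeks. At 15 against 0 weeks 4 were higher, namely Spp1, the secreted protein osteopontin (6.11-fold), Cd44, a hyaluronan receptor (3.40-fold), Sox9, a transcription factor of bile duct cells (2.15-fold), and Tspan8, a tetraspanin, and 3 were lower, Krt19 by 3.95-fold. Relative to the median measured gene 4 were higher and 1 lower. The shares of all measured genes in these comparisons are those given with the stellate cell markers.

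Markers of blood cells that carry Cd24a were read in the same way. Of B cell markers 7 of 14 were above background on every array, their summed scaled signal was 233, 243, 299 and 285 at 0, 5, 10 and 15 weeks, and 0 of 7 differed at least 2-fold at 10 against 0 weeks. Of erythroid markers 7 of 12 were above background on every array, with 1 of 7 lower at 10 against 0 weeks and a median log2 difference of −0.03. Ahsp, the chaperone of alpha globin, was not above background on any array. Of neutrophil markers 6 of 12 were above background on every array, with 2 higher and 0 lower at 10 against 0 weeks and a median of 0.55. Over all measured genes 2.92% were that much higher and 1.53% lower in this comparison. The part of bile duct and blood cells in the Cd24a values was not tested.

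**Figure D4:**
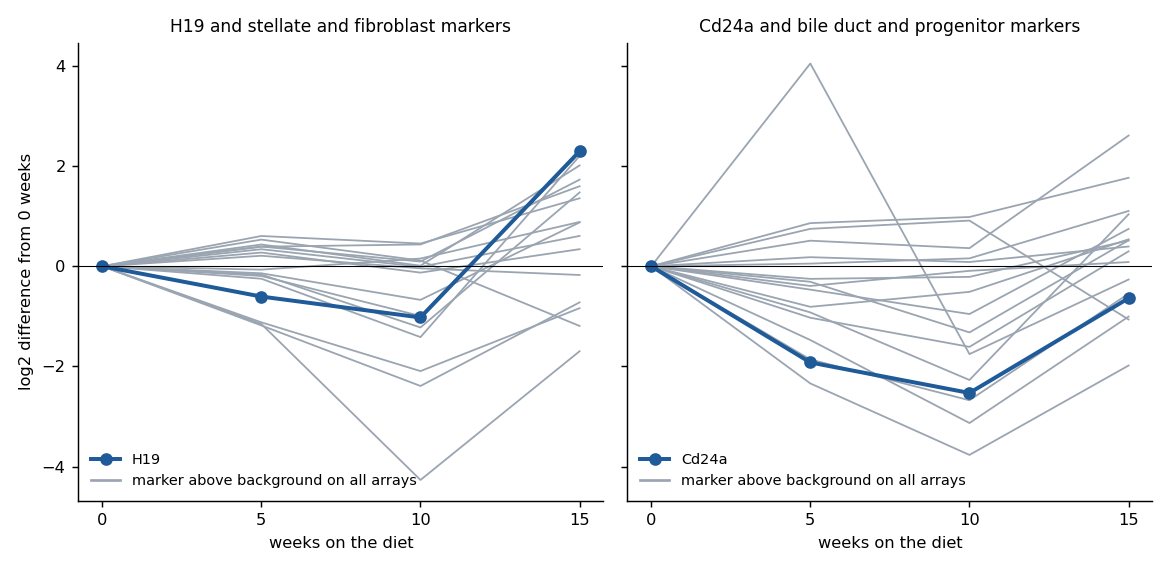
Log2 difference from 0 weeks against weeks on the diet for H19 with 16 stellate and fibroblast markers and for Cd24a with 16 bile duct and progenitor markers, all above background on every array. Thick blue lines are H19 and Cd24a and grey lines are single markers. Cd24a lies at −2.53 at 10 weeks, and the grey line that peaks at 5 weeks in the second panel is Krt7.

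Other imprinted genes stayed mostly within 2-fold, as did most genes of the array. Of 56 on the array, 39 were measured at 15 against 0 weeks, and 32 of these stayed within 2-fold, while 5 were higher and 2 lower. Over all measured genes 5.76% were that much higher and 5.03% lower, so the list is not read as more stable than the array. The median log2 difference was −0.15 as scaled and 0.10 relative to the median measured gene. Mest, a paternally read gene of the hydrolase family, read 13.5, 13.7, 17.6 and 54.8 and was 4.05-fold higher at 15 weeks. Plagl1, a zinc finger transcription factor, was 2.58-fold higher on its brightest probe (60.7, 60.2, 47.0 and 157), but 2 of its 4 probes stayed within 2-fold. Blcap, a small membrane protein gene, read 4328, 4393, 3048 and 816 and was 5.30-fold lower, and Kcnq1, a potassium channel, was 2.69-fold lower (129, 49.4, 53.0 and 48.0). At 5 against 0 weeks 0 of 38 were higher and 2 lower (2.3% and 1.57% of all measured genes). At 10 against 0 weeks 0 of 38 were higher and 3 lower (2.92% and 1.53%).

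Genes of fetal liver beyond these 9 differed in both directions. Of 28 on the array 18 were measured at 15 against 0 weeks, with 4 at least 2-fold higher, 1 lower and a median log2 difference of 0.23 as scaled and 0.48 relative to the median measured gene. Ly6d, a surface protein, read 2137, 896, 1507 and 10488 and was 4.91-fold higher. Scd2, the stearoyl-CoA desaturase of early life, was 2.89-fold higher (93.6, 93.4, 77.7 and 271), and Bex1, a small adaptor protein, was 2.14-fold higher at 25.3. Hk2, a hexokinase of growing cells, was not above background at 0 weeks and was at least 4.99-fold higher at 15 weeks. Cyp3a16, a cytochrome of young mice, was 2.97-fold lower (3740 at 0 weeks, 262, 780 and 1259 later), although Cyp3a probes can share signal. Hbb-y, an embryonic globin, was at least 3.06-fold lower at 15 than at 0 weeks, but it had no steady course. It read 18.0, 2.34, 20.0 and 5.89 at 0, 5, 10 and 15 weeks and was above background only at 0 and 10 weeks. The second Hbb-y probe was not above background on any array. In this list 7 genes, Lin28b and Igf2bp1 among them, were not above background on any array. At 15 against 10 weeks 9 of 18 measured genes were higher and 0 lower, where 3.95% of all measured genes were higher and 4.06% lower. The shares at 15 against 0 weeks were 5.76% and 5.03%.

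The regulators of fetal and imprinted genes mostly stayed within 2-fold, as did most genes of the array. Of 26 measured at 15 against 0 weeks, 0 were at least 2-fold higher and 1 lower, against 5.76% and 5.03% of all measured genes. With 26 genes, this list is not read as more stable than the array. Their median log2 difference was −0.22 as scaled and 0.03 relative to the median measured gene. The lower gene was Dnmt3b, a DNA methyltransferase, at 230, 113, 99.1 and 100 (2.29-fold lower, 1.92-fold relative to the median measured gene). Zhx2, the repressor of Afp and H19, was not above background on any array (2.23, 2.96, 4.10 and 2.59), so its course is not known here. Zbtb20, the second repressor of Afp, read 1441, 1605, 1675 and 1638 and stayed within 2-fold. Uhrf1, which guides DNA methylation at replication, was at least 5.29-fold higher at 15 weeks.

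The partners of Igf2 and the relatives of Gpc3 and Dlk1 were measured as well. In the axis of insulin-like growth factors, 0 of 14 measured genes differed at least 2-fold at 15 against 0 weeks. Igf1, the growth factor of adult liver, read 14667, 16117, 14340 and 9145, Igf2r, the imprinted receptor that clears Igf2, read 482, 466, 484 and 570, and Igf1r, the signalling receptor, read 51.1, 48.3, 41.2 and 54.8. Of 14 glypican and heparan sulfate genes, 2 were higher and 0 lower, Gpc1, another glypican (2.58-fold), and Sdc3, a syndecan (2.38-fold), with a median log2 difference of −0.43. Of 10 Notch relatives of Dlk1, 2 were higher and 0 lower, both targets of Notch signalling, Hey1 (4.0-fold, 47.4 at 15 weeks) and Heyl (3.25-fold, 53.6 at 15 weeks), with a median of 0.08. Over all measured genes 10.8% passed 2-fold between these arrays, and no difference between a list and the other genes was tested.

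**Figure D5:**
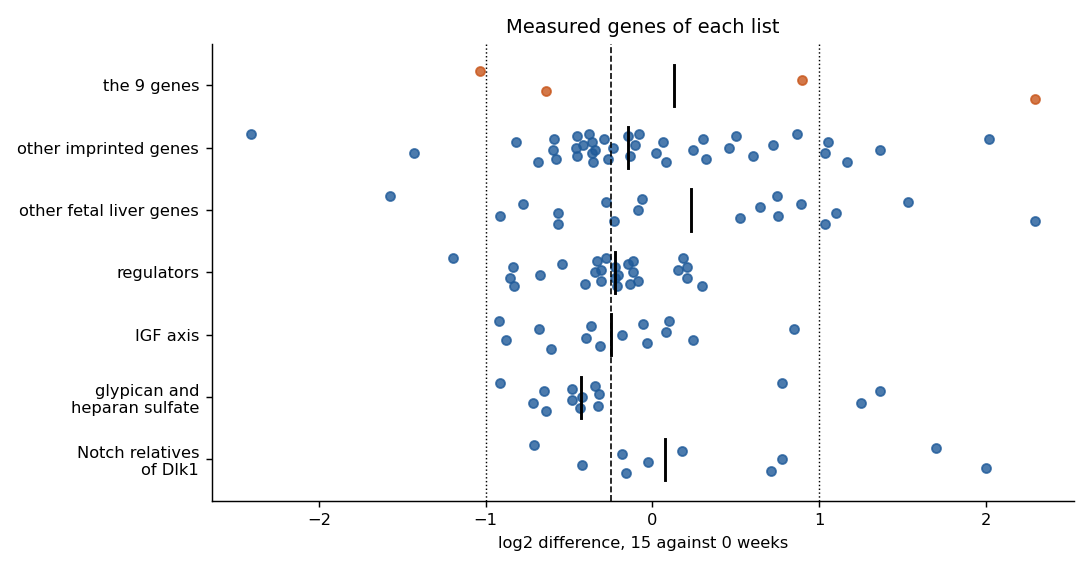
Log2 difference at 15 against 0 weeks for each measured gene of the 9 (orange) and of 6 lists of related genes (blue), with black bars at the list medians. Dotted lines mark 2-fold, and the dashed line is the median of all measured genes at −0.25. The 9 genes are represented by 4 points, H19 farthest to the right at 2.30.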

How the data were processed

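Per the labels' protocols, total RNA from frozen liver was amplified and labelled with Cy3. Per the file headers, 4 Agilent arrays were read with Agilent Feature Extraction 10.7.3.1, and each spot has a background-subtracted fluorescence intensity on a linear scale, the processed signal, and an error for it. The deposited value table holds the same intensity divided by the median of each array. No paper was used.

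Here the processed signal was divided by the 75th percentile of non-control spots and taken to log2, spots marked non-uniform or as outliers were left out, and spots of a probe were averaged. A bound divides the brighter value by the larger of the dim value and the floor of its array. Spots with 5 or more bright neighbours were left out as an alternative. The steps were tested on simulated data with known folds. Python 3.11.15, pandas 2.3.3 and, for normexp, limma 3.58.1 were used, with 12 alternatives.

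The 9 genes and the 16 gene lists were chosen with earlier results of these data known. From each list the text names up to 4 measured genes with the largest difference at 15 against 0 weeks past 2-fold, genes with a bound of at least 2-fold, Zhx2, Zbtb20, Igf1, Igf2r and Igf1r, and the 3 genes closest to a member in course. Neighbours of the imprinted pairs, Tspan8, Krt7, Ahsp, Cftr, Onecut1, Acta2, Tagln, Dcn, Ecm1, Golm1 and relatives of Igf2bp3 were named after their values were seen. Some marker genes are not reported here.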

Additional observations from a re-analysis of the deposited data

How the results depend on the processing

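Counts of the 9 genes past 2-fold moved as follows. At 15 against 0 weeks the count was 2, and 1 (H19) with the array median, the deposited table, quantile normalization, normexp, the mean of all probes or a 3-fold threshold, 4 with a 1.5-fold threshold and 5 with no background filter. It stayed at 2 with the percentile over detected probes and with spike-in scaling, but with Afp higher in place of Meg3 lower. At 10 against 0 weeks the count of 2 became 1 (Cd24a) with normexp, the mean of all probes or a 3-fold threshold, and 5 with no filter. At 5 against 0 weeks 1 became 3 with no filter or a 1.5-fold threshold. At 10 against 5 weeks 0 became 1 with no filter or a 1.5-fold threshold. At 15 against 5 weeks 3 became 5 with no filter, 4 with a 1.5-fold threshold (Gpc3 added), 2 with normexp, spike-in scaling or the mean of all probes (Meg3 lost) and 1 with a 3-fold threshold. At 15 against 10 weeks 2 became 3 with spike-in scaling (Afp added) or no filter (Peg3 added). Shares of all genes at 1.5-fold and 3-fold are not given here. With no filter, 5341 of 34746 genes passed 2-fold at 15 against 0 weeks. These counts are not read as a property of the 9 genes. Part of the 220 alternative log2 differences of single genes could not move, so their counts are not a measure of robustness. The deposited table gives the same differences as the array median, and dropping the background filter changes no measured difference. The mean of all probes changes no gene with 1 probe. The spread of repeated spots was taken over all repeated probes above background, with a median SD of 0.06 to 0.08. Probes below a log2 of −1, the range of most of these genes, had 0.17 to 0.23, so this spread is too narrow for them. Of the 220 differences, 139 stayed within it, 81 moved beyond it, and 0 of those past 2-fold changed sign. Among those within 2-fold, H19 at 5 against 0 weeks turned from −0.61 to 0.11 with the mean of all probes, which takes in undetected probes. H19 at 15 against 0 weeks ranged from 1.66 to 2.77 over 11 settings, from 1.88 to 3.36 at 15 against 5 weeks and from 2.07 to 3.91 at 15 against 10 weeks, and Cd24a at 10 against 0 weeks from −2.65 to −1.93.

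Over all measured genes, those past 2-fold at 5, 10 and 15 against 0 weeks numbered 662, 763 and 1895, against 277, 341 and 979 with normexp and 3456, 3791 and 5341 with no filter, which tests more genes. Of them 53.4% were higher at 15 weeks, against 71.2% with the percentile over detected probes, 67.4% with normexp and 85.1% with spike-in scaling, and 65.5% at 10 weeks, against 54.3% with the array median and 52.8% with spike-in scaling. At 15 against 10 and 5 weeks the share was 49.3% and 48.7%, against 91.2% and 83.6% with spike-in scaling. The cause was not tested. Signal over background limits Igf2, Peg3, Dlk1 and Gpc3. No paired analysis was possible because each time point has 1 array, and no replicate could be left out.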

Other observations

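Other gene groups were also high on the array where H19 was brightest. Over all measured genes 5.76% were at least 2-fold higher at 15 than at 0 weeks and 5.03% lower. Of 14 measured cell cycle genes 8 were higher by 2-fold or more in this comparison and 1 was lower, with a median log2 difference of 1.17. The higher ones included Cdc20, an activator of the anaphase ligase (13.3-fold higher), Mki67, the proliferation marker (7.95-fold), Ccnb2, a mitotic cyclin (5.51-fold), and Birc5, the mitotic protein survivin (4.90-fold), while Ccna2, Plk1 and Ccnb1, further genes of division, had bounds of at least 11.7-fold, 9.45-fold and 7.73-fold. Of 19 measured genes of injury, tumours and regeneration 16 were higher and 0 lower, with a median of 1.52, led by Atf3, a stress transcription factor (16.4-fold), S100a11, a calcium-binding protein (9.36-fold), and Anxa2, an annexin (6.37-fold). This list is not separate from the others. It shares Spp1, Sox9 and Cd44 with the bile duct markers, Gpnmb with the macrophage markers and Lcn2 with the neutrophil markers. Ly6d, Golm1 and Bex1 are also among the fetal liver genes.

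Of 15 measured macrophage markers 11 were higher and 0 lower, with a median of 2.04, led by Cx3cr1, a chemokine receptor (31.8-fold), Trem2, a lipid receptor (23.3-fold), Itgax, an integrin (16.2-fold), and Lyz2, a lysozyme (6.94-fold), and Gpnmb, a lysosomal glycoprotein, was at least 26.1-fold higher. Of 6 measured neutrophil markers 3 were higher, S100a8 (6.15-fold), S100a9 (5.30-fold) and Lcn2 (2.96-fold), and Ltf was at least 4.30-fold lower. Of 7 measured erythroid markers 3 were lower, Tfrc (3.90-fold), Klf1 (3.48-fold) and Hemgn (3.20-fold). Among B cell markers 0 of 7 differed 2-fold and Fcmr had a bound of at least 2.89-fold, and 0 of 14 endothelial markers differed 2-fold. Hepatocyte markers that were lower included Ass1 (2.08-fold) and G6pc (2.07-fold), which were 1.75-fold and 1.74-fold lower relative to the median measured gene. Relations of these groups to H19 or the other genes were not tested.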
